A study of Mus musculus with 5 samples.

Results

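Glycosyltransferases that branch and cap glycans were followed across 5 populations of mouse bone marrow. The members are all genes whose platform symbol begins with St3gal, St8sia, B3gnt, B3galt, B4galt, Fut, Galnt, Gcnt or Mgat and a digit, or with St6gal, and that have a probe set with exactly 1 gene symbol. This gave 79 of the 19938 named genes on the array. They were chosen by name and not by a cut on any measured value, though with earlier results of these data known. B4galt2 and Fut1 also carry such names in RefSeq but had no probe set of their own symbol and are not analysed here.

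The cells came from the marrow of untreated wild-type C57Bl/6 mice and were sorted by flow cytometry, and each population was measured on 1 expression array. All 5 lacked lineage markers and carried CD115. The monocyte-dendritic cell progenitor (MDP) was CD117+ CD135+, the common dendritic cell progenitor (CDP) CD117int CD135+, and the common monocyte progenitor (cMoP) CD117+ CD135-. The classical monocyte was Ly6C+ TremL4- and the nonclassical monocyte Ly6C- TremL4+. The labels state no age, no sex and no number of mice per array, so pooling of animals is unknown here.

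Most cell surface proteins and many lipids carry sugar chains that are built step by step in the Golgi by these enzymes. N-glycans, attached to asparagine, are branched by the MGAT enzymes. O-glycans, attached to serine or threonine, are started by the GALNT enzymes and branched by the GCNT enzymes. Galactosyltransferases and B3GNT enzymes lengthen the branches, and sialyltransferases and fucosyltransferases finish them. In blood leukocytes the finished chains are known as ligands of selectins, siglecs and galectins. Glycosphingolipids share the first steps up to lactosylceramide and then divide into series, of which the ganglio series starts with the ganglioside GM3.

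Values are the deposited log2 values, 1 for each gene and array. Differences are given in log2 units, with the sign of the first-named population against the second, and 1 log2 unit is 2-fold. A gene was called higher or lower where this difference was at least 1 log2 unit and the higher of both arrays lay at or above a floor of 6.27, the median of all named genes over the 5 arrays. Where the lower value lay under the floor, its fold was taken against the floor and is given as a lower bound. There are no replicates, so no difference has a replicate check and no p-value or standard deviation was computed. Precision is limited by having 1 array for each population. In sorted bulk RNA, fewer cells that express a gene and less of its RNA per cell cannot be told apart. Levels of different genes are not set against each other, because probe sets differ in response.

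Of 6 gate genes 4 were measured, while Ly6c1 and Ly6c2 had no probe set with exactly 1 gene symbol. Csf1r, which encodes CD115, lay between 10.03 and 12.21. Treml4 was at 11.78 on the nonclassical array and at 6.18 or lower on the other 4. Kit (CD117) was at 5.79 and 5.61 on the monocyte arrays and at 8.16 or higher on the progenitor arrays. Flt3 (CD135) was at 10.75 in MDP, 10.74 in CDP and 6.40 in cMoP. Monocyte markers had 8 of 10 at the floor in cMoP and 9 on each other array. Their summed log2 level ran from 82.91 in MDP to 102.58 on the classical array. Of 9 measured T and NK cell markers, 0 or 1 reached the floor on each array (summed log2 level 44.57 to 45.81), and of 9 B cell markers 2 or 3 did (49.53 to 53.36). Cd79b (8.41 to 9.50) and Vpreb1 (6.45 to 6.98) were above it on all 5 arrays and Cd22 in CDP (7.23), while Cd79a, Ms4a1, Pax5, Ebf1, Vpreb3 and Blnk were under it on all 5. Macrophage markers had 1 or 2 of 10 at the floor (53.37 to 59.28) with Adgre1 above it on all 5 arrays (6.43 in MDP to 11.25 in the nonclassical monocyte) and C1qa, C1qb, C1qc and Mertk under it throughout. Markers of other lineages had 1 or 2 of 6 there for erythroid cells (33.90 to 37.40) and 2 to 4 of 6 for megakaryocytes (32.80 to 34.77). Neutrophil markers had 2 to 5 of 10 at the floor, with Ly6g, Ltf and Retnlg under it on all 5 arrays. Their summed level was highest on the classical array (70.10, with Mmp8 at 11.28 and Lcn2 at 10.45) against 57.45 in CDP and 58.57 on the nonclassical array. Conventional and plasmacytoid dendritic cell markers were highest in CDP, with 8 of 10 (77.82) and 7 of 9 (75.15) at the floor, against summed ranges of 56.64 to 66.31 and 63.49 to 66.09 on the other 4 arrays. The part of these markers in the differences below was not tested.

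Of the 79 members, 46 (58.2%) reached the floor on at least 1 array and 34 (43.0%) on all 5, close to 55.5% and 43.9% of all named genes. Between 40 and 43 members were at or above the floor on each array. The median range over the 5 arrays was 0.56 log2 units for members and 0.44 for all named genes. For 37 members the range was under 0.5, and for 20 members (25.3%) it was at least 1 with a value at the floor, against 20.4% of all named genes. In 41 members at least 2 arrays held exactly the same value, a feature of the table that 55.7% of all named genes share. Presence was thus near that of all genes.

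**Figure D1:**
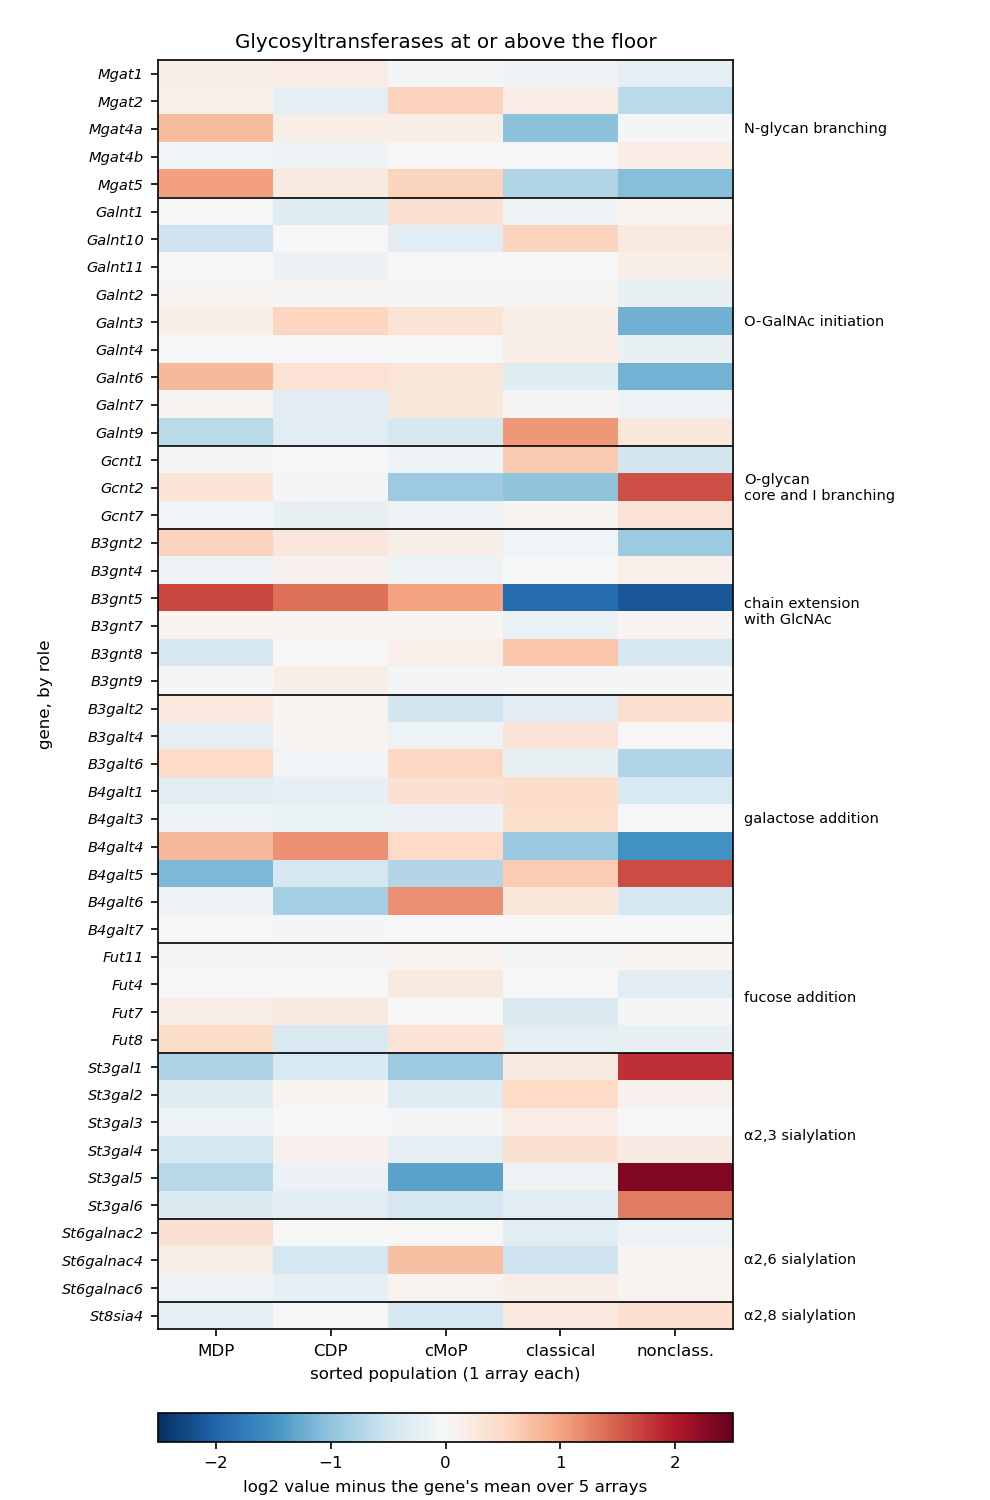
Deviation of each gene's log2 value (colour, in log2 units) from its mean over the 5 arrays, for the 46 members at or above the floor on any array; columns are the populations with 1 array each, and rows are grouped by role. St3gal1, St3gal5, St3gal6, B4galt5 and Gcnt2 are deepest red in the nonclassical column, while B3gnt5 and B4galt4 are red in the 3 progenitor columns and blue in both monocyte columns.

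In all, 15 members were called in at least 1 of the 5 comparisons (19%), beside 12.4% of all named genes. Between CDP and MDP 0 members were called in either direction, beside 0.602% of all named genes called higher and 0.552% lower. Between cMoP and MDP 1 was higher (background 0.737%) and 1 lower (0.717%). Between cMoP and CDP 2 were higher (1.69%) and 1 lower (1.15%). All of these counts are close to the background. From cMoP to the classical monocyte 4 members were higher (5.06% of members, background 3.62%) and 5 lower (6.33%, background 2.27%). From the classical to the nonclassical monocyte 4 were higher (5.06%, background 1.87%) and 3 lower (3.80%, background 5.17%), and quantile normalization changed that split to 6 higher and 1 lower. The median member difference lay between 0 and 0.03 in each of the 5 comparisons, and that of all named genes between 0 and 0.01. Counts this small carry no test, and a change in 1 or 2 genes would move each share by more than 1 percentage point.

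**Figure D2:**
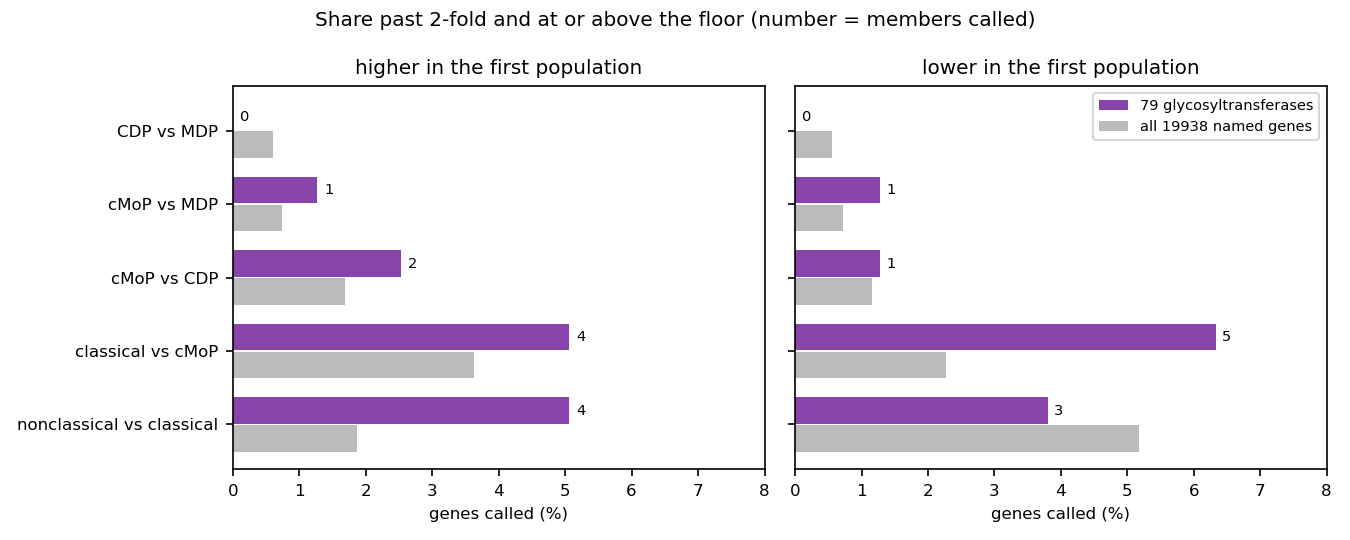
Percent of genes called (horizontal axis) in each comparison, higher in the first population on the left and lower on the right; purple bars are the 79 glycosyltransferases, grey bars all 19938 named genes, and the number at each purple bar counts the members. The longest purple bars are those of the 5 members lower in the classical monocyte than in cMoP and of the 4 higher in each step between cMoP, classical and nonclassical monocytes.

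Of the 11 genes of N-glycan branching, Mgat5 and Mgat4a were called, both lower in the classical monocyte than in cMoP. Mgat5, which adds the beta-1,6 branch that favours long lactosamine chains and galectin binding, had values of 9.66 in MDP, 8.86 in CDP, 9.19 in cMoP, 7.89 in the classical and 7.57 in the nonclassical monocyte. Both monocyte arrays lay below all 3 progenitor arrays. The classical monocyte was 2.47-fold lower than cMoP (-1.31). The gap between the lowest progenitor and the higher monocyte was 0.97, just short of 1 log2 unit, and with quantile normalization Mgat5 passed that threshold.

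Mgat4a, which adds a beta-1,4 branch to the other arm, had values of 7.80 in MDP, 7.14 in CDP, 7.15 in cMoP, 5.98 in the classical and 6.94 in the nonclassical monocyte. It was thus lowest on the classical array, at least 1.84-fold below cMoP (-1.17), a call that ended when the floor was raised to the upper quartile of all named genes (7.93), and the nonclassical array was higher than the classical one by 0.97, which became 1.04 with quantile normalization. Its paralog Mgat4b stayed between 7.05 and 7.34. Mgat1, which opens the pathway to complex N-glycans, ranged from 8.16 in the nonclassical monocyte to 8.58 in CDP. Mgat2, which starts the second antenna, ranged from 7.60 in the nonclassical monocyte to 8.85 in cMoP, with none of the 5 comparisons past the threshold. Mgat3, which adds the bisecting residue, was under the floor on all 5 arrays and highest in the nonclassical monocyte at 6.22. The remaining 5 of the 11 MGAT genes, Mgat4c, Mgat4d, Mgat4e, Mgat4f and Mgat5b, were under the floor throughout.

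The clearest difference between progenitors and monocytes was in B3gnt5, the enzyme that adds N-acetylglucosamine to lactosylceramide and so opens the lacto and neolacto series of glycolipids. Its values were 9.04 in MDP, 8.75 in CDP, 8.39 in cMoP, 5.44 in the classical and 5.23 in the nonclassical monocyte. All 3 progenitor arrays were far above the floor and both monocyte arrays were under it. The classical monocyte was at least 4.34-fold lower than cMoP (-2.94). B4galt4, a galactosyltransferase that acts on N-acetylglucosamine ends, including those of lacto-series lipids, was likewise higher on all 3 progenitor arrays than on both monocyte arrays, with 8.02 in MDP, 8.35 in CDP, 7.70 in cMoP, 6.27 in the classical and 5.69 in the nonclassical monocyte. It was 2.68-fold lower in the classical monocyte than in cMoP (-1.42), a call that ended with the floor at 7.93. B3gnt5 and B4galt4 were the 2 members (2.53%) whose lowest progenitor value was at least 1 log2 unit above both monocyte values, beside 0.436% of all named genes.

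The 250 bases before the RefSeq transcription start of both genes (build GRCm38.p6, both on the + strand, 5′ to 3′) are shown because these members were high in the same 3 arrays. Capitals mark matches to any of the motifs named after the sequences. They lie at chr16:19759984-19760233 for B3gnt5 and chr16:38742009-38742258 for B4galt4.
B3gnt5: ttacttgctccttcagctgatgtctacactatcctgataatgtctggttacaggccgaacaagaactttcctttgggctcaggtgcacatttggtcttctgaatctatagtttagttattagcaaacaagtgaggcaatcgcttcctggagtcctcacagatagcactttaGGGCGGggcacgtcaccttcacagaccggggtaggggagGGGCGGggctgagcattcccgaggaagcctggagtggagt
B4galt4: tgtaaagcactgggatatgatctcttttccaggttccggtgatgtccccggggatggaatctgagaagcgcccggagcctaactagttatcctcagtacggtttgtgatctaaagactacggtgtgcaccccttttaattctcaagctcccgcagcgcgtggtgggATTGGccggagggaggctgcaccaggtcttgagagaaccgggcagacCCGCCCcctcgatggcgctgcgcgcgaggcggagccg
The motifs were searched on both strands, with overlapping matches counted. They were the SP/KLF GC box GGGCGG, an ETS-type site GGAAGT, the E box CACGTG, the NR4A response element AAAGGTCA, a C/EBP-type site TTGCNNAA and the CCAAT box CCAAT. Only matches to all of these letters were counted, so the shorter GGAA within the ETS-type site was not. These motifs occur in 32.7%, 19.7%, 6.02%, 1.34%, 9.56% and 33.8% of the 32851 RefSeq windows of this length. The GC box was matched 2 times before B3gnt5 and 1 time before B4galt4, which also had 1 CCAAT match. The other 4 motifs had 0 matches in both windows. The B3gnt5 window is 51.2% G and C with 7 CpG, near the medians of 52.4% and 6 over all windows, and the B4galt4 window is 59.2% with 19 CpG.

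Other enzymes that lengthen lactosamine chains had smaller differences. B3gnt2, the main enzyme of polylactosamine extension, had values of 10.49 in MDP, 10.20 in CDP, 10.06 in cMoP, 9.85 in the classical and 9.02 in the nonclassical monocyte. The nonclassical array was the lowest, by 0.83 against the classical one, and none of the 5 comparisons was past the threshold. Outside those comparisons, the nonclassical array differed by -1.47 from MDP, -1.18 from CDP and -1.04 from cMoP. B3gnt8, which acts on highly branched N-glycans together with B3gnt2, had values of 7.58 in MDP, 8.01 in CDP, 8.14 in cMoP, 8.70 in the classical and 7.61 in the nonclassical monocyte. It was 2.13-fold lower in the nonclassical than in the classical monocyte (-1.09), a call that ended with quantile normalization (-0.81). B3gnt7 held 6.81 on 4 arrays and 6.61 on the classical one. B3gnt4 (6.22 to 6.47) and B3gnt9 (6.15 to 6.34) lay at the floor, and B3gnt3 and B3gnt6 under it.

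B4galt5, which makes lactosylceramide from glucosylceramide, was higher on the monocyte than on the progenitor arrays, the reverse of B3gnt5. Its values were 7.67 in MDP, 8.37 in CDP, 8.05 in cMoP, 9.43 in the classical and 10.43 in the nonclassical monocyte. Both monocyte arrays lay above all 3 progenitor arrays, by 1.06 at the nearest point, and the classical monocyte was 2.59-fold higher than cMoP (1.37). It was the 1 member (1.27%) called higher in both monocytes than in all progenitors, beside 1.32% of all named genes, so that count is at the background. With quantile normalization B4galt5 no longer passed that rule and was instead called higher in the nonclassical than in the classical monocyte (1.21, against 0.999 as deposited).

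B4galt6, the other lactosylceramide synthase, was highest in cMoP. Its values were 7.24 in MDP, 6.52 in CDP, 8.52 in cMoP, 7.66 in the classical and 6.94 in the nonclassical monocyte. It was 2.42-fold higher in cMoP than in MDP (1.28) and 4.001-fold higher than in CDP (2.001). No other member was called higher in cMoP than in MDP. The 2 genes of the same reaction thus peaked on different arrays, B4galt5 on the nonclassical and B4galt6 on the cMoP array.

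St3gal5, the GM3 synthase that adds sialic acid to lactosylceramide, had the largest difference of any member between the monocyte arrays except Gcnt2. Its values were 6.21 in MDP, 6.77 in CDP, 5.56 in cMoP, 6.77 in the classical and 9.22 in the nonclassical monocyte. MDP and cMoP were under the floor, CDP and the classical monocyte were above it and differed by 0.0050, and the nonclassical array stood alone. The nonclassical monocyte was 5.46-fold higher than the classical one (2.45). The classical monocyte was called higher than cMoP (1.21, at least 1.42-fold) and cMoP lower than CDP (-1.21, at least 1.41-fold), both against a cMoP value under the floor and both lost with the floor at 7.93.

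The enzymes before and after these steps were read from a list of other synthesis enzymes. Ugcg, which makes glucosylceramide, ranged from 6.89 in CDP to 7.84 in the nonclassical monocyte with no call. B4galnt1, which extends GM3 to GM2, had values of 10.08 in MDP, 9.45 in CDP, 10.74 in cMoP, 9.91 in the classical and 11.16 in the nonclassical monocyte. It was 2.38-fold higher in the nonclassical than in the classical monocyte (1.25) and 2.44-fold higher in cMoP than in CDP (1.28). B3galt4, which makes GM1 from GM2, stayed between 7.16 and 7.72, and St8sia1, which makes GD3 from GM3, was under the floor on all 5 arrays with its highest value in CDP (6.09). On the nonclassical array B4galt5, St3gal5 and B4galnt1 were each at their highest, while B4galt6 was lower there than on the classical array (6.94 and 7.66). B3gnt5 was under the floor on both monocyte arrays, so its difference between them has no fold.

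**Figure D3:**
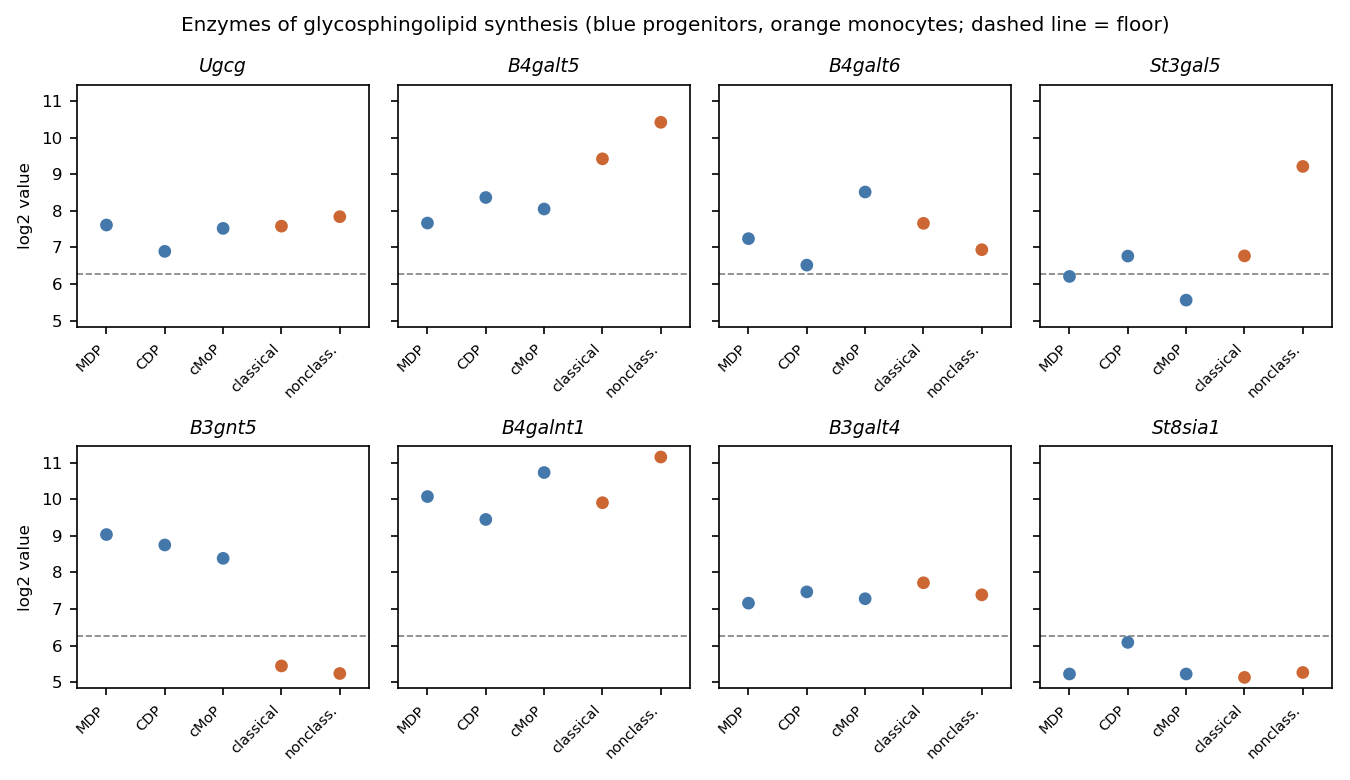
Log2 value (vertical axis, shared by all panels) of 8 glycosphingolipid enzymes on each of the 5 arrays; blue points are progenitors, orange points monocytes, and the dashed line is the floor of 6.27. B4galt5, St3gal5 and B4galnt1 are highest on the nonclassical array (10.43, 9.22 and 11.16). B3gnt5 is under the floor on both the classical and the nonclassical array (5.44 and 5.23).

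The same upstream windows are shown for B4galt5 and St3gal5, which act one after the other and were both highest on the nonclassical array. They lie at chr2:167349179-167349428 on the - strand for B4galt5 and chr6:72097358-72097607 on the + strand for St3gal5 (GRCm38.p6, RefSeq, 5′ to 3′ along the gene, motif matches in capitals).
B4galt5: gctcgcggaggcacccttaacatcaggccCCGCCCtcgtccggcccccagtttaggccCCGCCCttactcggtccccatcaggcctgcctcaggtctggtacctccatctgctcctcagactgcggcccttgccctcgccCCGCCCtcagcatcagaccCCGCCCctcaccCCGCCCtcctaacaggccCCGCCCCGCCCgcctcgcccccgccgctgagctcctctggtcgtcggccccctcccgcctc
St3gal5: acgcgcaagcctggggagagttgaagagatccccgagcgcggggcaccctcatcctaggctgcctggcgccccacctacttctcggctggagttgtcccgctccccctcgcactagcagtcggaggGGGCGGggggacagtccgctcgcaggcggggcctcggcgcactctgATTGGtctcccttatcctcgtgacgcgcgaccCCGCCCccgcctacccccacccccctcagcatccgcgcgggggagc
The GC box was matched 7 times before B4galt5, with overlaps, and 2 times before St3gal5, which also had 1 CCAAT match. The NR4A, ETS, E box and C/EBP-type motifs had 0 matches in both windows. The windows are 73.2% and 71.6% G and C with 21 and 25 CpG. All 4 windows shown hold the GC box, which 32.7% of all windows hold, and it was present both before genes higher in the progenitors and before genes highest on the nonclassical array. Of the 79 members 58 had an entry in the RefSeq table. St3gal1 had none, and St3gal6 and Gcnt2 had 2 and 3 starts, so no window is shown for them.

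Of the 17 GALNT genes, which start O-glycans, 9 reached the floor. Of the 17, 2 (Galnt3 and Galnt9) were called in a comparison, beside 12.4% of all named genes. A range of at least 1 with a value at the floor was found for 4 of the 17 (Galnt3, Galnt6, Galnt9 and Galnt10), beside 20.4%. Both counts are close to the background. Galnt1, a broadly used initiating enzyme, ranged from 8.48 in CDP to 9.16 in cMoP. Galnt7, which prefers substrates that already carry a sugar, ranged from 7.89 to 8.44, and Galnt2, Galnt4 and Galnt11 ranged by 0.26, 0.34 and 0.31. Galnt10 ranged from 6.83 in MDP to 7.89 in the classical monocyte with no call.

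Galnt3, Galnt6 and Galnt9 differed more. Galnt3 had values of 7.10 in MDP, 7.47 in CDP, 7.29 in cMoP, 7.10 in the classical and 5.75 in the nonclassical monocyte, where it was at least 1.78-fold lower than in the classical one (-1.35), a call that ended with the floor at 7.93. It was the 1 member (1.27%) whose value on 1 array lay at least 1 log2 unit under all the others, beside 4% of all named genes. On the nonclassical array alone that background was 3.61%, and on MDP, CDP, cMoP and the classical array, where 0 members were set apart in this way, it was 0.12%, 0.0652%, 0.16% and 0.0502%. This count is no higher than the background. Galnt6, its close relative, had values of 7.25 in MDP, 6.80 in CDP, 6.73 in cMoP, 6.13 in the classical and 5.25 in the nonclassical monocyte. Both monocyte arrays were under the floor for Galnt6, and no single step passed the threshold. Galnt9 was under the floor in the progenitors (5.70 in MDP, 6.08 in CDP and 5.96 in cMoP) and at 7.46 in the classical and 6.64 in the nonclassical monocyte, at least 2.28-fold higher in the classical monocyte than in cMoP (1.497), which was not called with the floor at 7.93. The other 8, Galnt5, Galnt12, Galnt13, Galnt14, Galnt15, Galnt16, Galnt17 and Galnt18, were under the floor on all arrays.

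After initiation, the core 1 structure is made by C1galt1, which needs the chaperone encoded by C1galt1c1 (Cosmc), and then branched or capped. C1galt1 had values of 7.64 in MDP, 7.13 in CDP, 7.68 in cMoP, 8.19 in the classical and 8.87 in the nonclassical monocyte, with no call. C1galt1c1 had values of 9.25 in MDP, 9.59 in CDP, 10.55 in cMoP, 11.26 in the classical and 8.21 in the nonclassical monocyte. The chaperone gene was 8.31-fold lower in the nonclassical than in the classical monocyte (-3.05) and 2.45-fold higher in cMoP than in MDP (1.29). Enzyme and chaperone thus differed in opposite directions between the monocyte arrays.

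Gcnt1, the core 2 branching enzyme needed for most selectin ligands of leukocytes, had values of 8.42 in MDP, 8.45 in CDP, 8.36 in cMoP, 9.12 in the classical and 8.004 in the nonclassical monocyte. It was highest on the classical array and 2.17-fold lower on the nonclassical one (-1.12), which became -0.83 with quantile normalization and was then not called. St3gal1, which adds sialic acid to core 1 in place of that branch, had values of 8.04 in MDP, 8.43 in CDP, 7.90 in cMoP, 9.03 in the classical and 10.63 in the nonclassical monocyte. It was 3.03-fold higher in the nonclassical than in the classical monocyte (1.60) and 2.19-fold higher in the classical monocyte than in cMoP (1.13). Its second, dimmer probe set showed smaller differences in the same order of the monocyte arrays, at 6.34 in the classical and 6.79 in the nonclassical monocyte (0.45). With the mean of both probe sets, the classical monocyte was 0.65 above cMoP and not called.

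**Figure D4:**
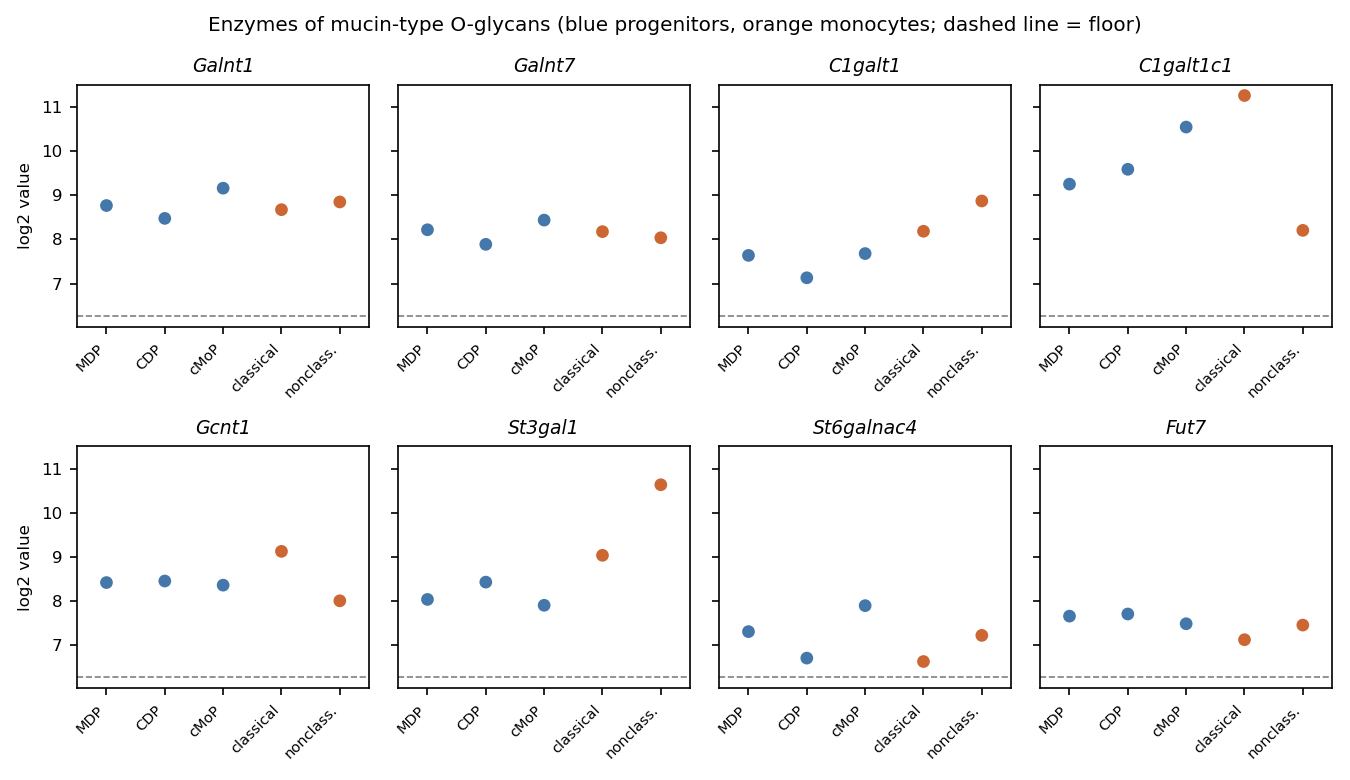
Log2 value (vertical axis, shared by all panels) of 8 enzymes or chaperones of mucin-type O-glycans on each of the 5 arrays; blue points are progenitors, orange points monocytes, and the dashed line is the floor of 6.27. From the classical to the nonclassical array C1galt1c1 is lower (11.26 and 8.21) and Gcnt1 is lower (9.12 and 8.004), while St3gal1 is higher (9.03 and 10.63).

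Gcnt2, which adds the branches of the I blood group antigen to polylactosamine, had the largest difference of any member between the monocyte arrays. Its values were 8.12 in MDP, 7.75 in CDP, 6.90 in cMoP, 6.80 in the classical and 9.41 in the nonclassical monocyte. It was 6.14-fold higher in the nonclassical than in the classical monocyte (2.62) and 2.33-fold lower in cMoP than in MDP (-1.22). Along the monocyte branch it was thus low in cMoP and the classical monocyte and high at both ends. Gcnt7 ranged from 6.40 in CDP to 6.92 in the nonclassical monocyte, and Gcnt3 and Gcnt4 were under the floor.

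Among the sialyltransferases that form alpha-2,3 links 3 of 6 were called in some comparison, beside 12.4% of all named genes. The share was smaller in each other role group, with 2 of 5 GCNT genes and 3 of 11 galactosyltransferases next. All 6 alpha-2,3 enzymes reached the floor. Each had its highest value on a monocyte array, which was so for 43.5% of all named genes. The median difference was 0.72 from cMoP to the classical monocyte, where St3gal1 and St3gal5 (2 of 6) were called higher (background 3.62%). From there to the nonclassical monocyte it was 0.70, and 3 of 6 were called higher and 0 lower (background 1.87% and 5.17%). St3gal2 (8.34 and 7.96), St3gal3 (7.86 and 7.67) and St3gal4 (8.07 and 7.91) were lower on the nonclassical than on the classical array. The 0.70 is thus a midpoint between genes that were higher and genes that were lower. Over all named genes both medians were between 0 and 0.01. With 6 genes these medians are a description.

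St3gal6, which caps lactosamine in selectin ligands, was the third of the 3 called enzymes. Its values were 5.62 in MDP, 5.70 in CDP, 5.54 in cMoP, 5.70 in the classical and 7.27 in the nonclassical monocyte. Only the nonclassical array reached the floor, and it was at least 2.004-fold above the classical one (1.58), a call that ended with the floor at 7.93. St3gal4, which shares that role, had values of 7.25 in MDP, 7.81 in CDP, 7.46 in cMoP, 8.07 in the classical and 7.91 in the nonclassical monocyte. St3gal2, which acts on core 1 and on gangliosides, ranged from 7.52 in MDP and cMoP to 8.34 in the classical monocyte, and St3gal3 from 7.55 to 7.86. These 3 were highest on the classical array and had no call. Together with Gcnt2, St3gal1, St3gal5 and St3gal6 were the 4 members (5.06%) at least 1 log2 unit above every other array on the nonclassical array, beside 1.59% of all named genes (2.6% for any of the 5 arrays). On each of the other 4 arrays 0 members stood apart in this way (background 0.135% for MDP, 0.11% for CDP, 0.155% for cMoP and 0.602% for the classical monocyte).

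**Figure D5:**
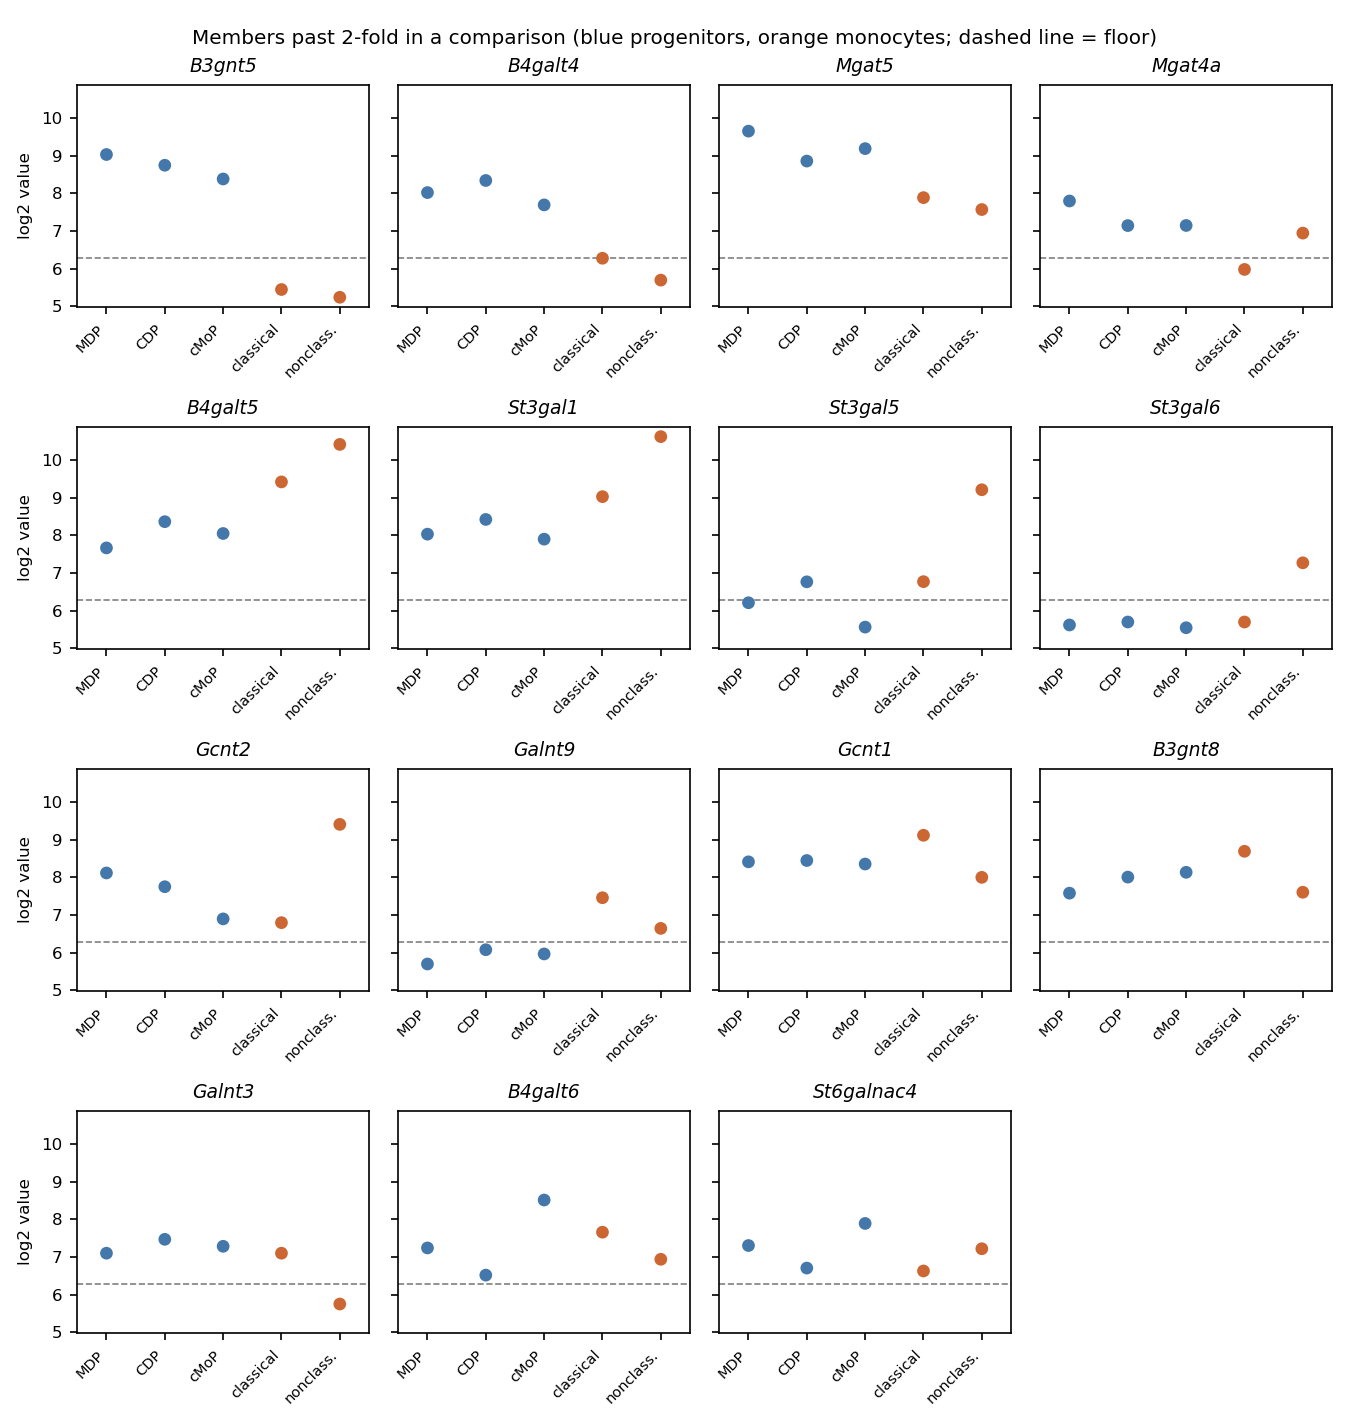
Log2 value (vertical axis, shared by all panels) of the 15 members called in any comparison, on each of the 5 arrays; blue points are progenitors, orange points monocytes, and the dashed line is the floor of 6.27. B3gnt5 and B4galt4 drop from the blue to the orange points, while St3gal1, St3gal5, St3gal6 and Gcnt2 each have 1 high point, the nonclassical array (10.63, 9.22, 7.27 and 9.41).

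Enzymes that form alpha-2,6 links were mostly dim. St6gal1, which caps N-glycans and is well known in B cells, was under the floor on all 5 arrays, from 4.86 in MDP to 6.26 in the nonclassical monocyte. St6galnac4, which adds a further sialic acid to sialylated core 1, had values of 7.31 in MDP, 6.71 in CDP, 7.89 in cMoP, 6.63 in the classical and 7.22 in the nonclassical monocyte. It was 2.28-fold higher in cMoP than in CDP (1.19) and 2.41-fold lower in the classical monocyte than in cMoP (-1.27). Both calls ended with the floor at 7.93. St6galnac6, which acts on gangliosides, ranged from 7.61 to 7.97 and St6galnac2 from 6.27 to 6.94. The remaining St6gal2, St6galnac1, St6galnac3 and St6galnac5 were under the floor.

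Of the 6 enzymes that form alpha-2,8 links, only St8sia4 reached the floor. It makes polysialic acid, known on the adhesion molecule NCAM and on the chemokine receptor CCR7. Its values were 10.41 in MDP, 10.65 in CDP, 10.21 in cMoP, 10.88 in the classical and 11.03 in the nonclassical monocyte, a range of 0.82 with no call. It was well above the floor in every population.

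Fucosyltransferases had 0 calls in all 5 comparisons and 4 of 7 members at the floor. Fut7, which completes sialyl Lewis x, had values of 7.66 in MDP, 7.70 in CDP, 7.48 in cMoP, 7.12 in the classical and 7.45 in the nonclassical monocyte. Fut4, which fucosylates lactosamine and makes the CD15 antigen, held 7.35 in MDP, CDP and the classical monocyte, 7.57 in cMoP and 7.09 in the nonclassical monocyte. Fut8, the core fucose enzyme of N-glycans, was higher in MDP (8.33) and cMoP (8.22) than in CDP (7.50) and the monocytes (7.64 and 7.68), by less than 1 log2 unit. Fut11 stayed between 7.06 and 7.18. Fut2, Fut9 and Fut10 were under the floor. None of the 7 had its highest value on a monocyte array alone, beside 43.5% of all named genes. Of them 5 peaked on a progenitor array and 2, Fut2 and Fut9, had equal maxima on both kinds. This placement is weak, because Fut2, Fut9 and Fut10 were under the floor and Fut11 peaked in cMoP by only 0.019.

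The remaining galactosyltransferases differed by less than 1 log2 unit in each of the 5 comparisons. B4galt1, the main enzyme of lactosamine synthesis, had values of 8.86 in MDP, 8.91 in CDP, 9.50 in cMoP, 9.57 in the classical and 8.73 in the nonclassical monocyte. B4galt3 ranged from 7.31 to 7.91. B4galt7 and B3galt6, which add the galactoses of the linker that carries glycosaminoglycans, ranged from 6.62 to 6.68 and from 6.07 in the nonclassical monocyte to 7.34 in cMoP. B3galt2 reached the floor only on the nonclassical array (6.43), and B3galt1 and B3galt5 on none.

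The surrounding pathway was read from 7 lists that exclude the members. Of 31 genes for the N-glycan precursor and its transfer to protein, 0 were higher and 4 lower in the nonclassical than the classical monocyte. Over all named genes, 1.87% were called higher and 5.17% lower in that comparison (2.53% and 3.78% with quantile normalization). The list median was -0.44, which shrank to -0.17 with quantile normalization. The 4 were Alg8 (-2.16, 4.48-fold), a glucosyltransferase of the precursor, Dpagt1 (-1.23), which starts it, and the oligosaccharyltransferase subunits Krtcap2 (-1.12) and Rpn1 (-1.07), and after quantile normalization 1 of the list was called. The 15 genes of N-glycan trimming had a median of -0.45 there (-0.18 with quantile normalization) with 0 called, and Edem2, which helps degrade misfolded glycoproteins, was higher in cMoP than in CDP (1.15). Rpn1 was higher in cMoP than in CDP (1.56) and lower in the classical monocyte than in cMoP (-1.0003). Of the 30 donor sugar genes, Gfpt1, the entry enzyme of the hexosamine pathway, was 2.94-fold higher in the nonclassical monocyte (1.56) and Nans, which makes sialic acid phosphate, 2.06-fold lower (-1.05). Quantile normalization changed that split of the list from 1 higher and 1 lower to 2 and 0. Gmds, which starts the synthesis of GDP-fucose, was 2.29-fold lower in the classical monocyte than in cMoP (-1.19). Gnpnat1, which acts later in the hexosamine pathway, was lower in CDP than in MDP (-1.13), higher in cMoP than in CDP (1.24) and lower in the classical monocyte than in cMoP (-1.003). Gmppa, which regulates GDP-mannose supply, was higher in cMoP than in CDP (1.21).

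Of the 35 other synthesis enzymes, 2 were higher and 1 lower in the nonclassical than in the classical monocyte (background 1.87% and 5.17%). Lfng, the fringe enzyme that lengthens O-fucose on Notch, was the larger of the 2 at 4.11-fold (2.04), with values of 7.70 in MDP, 7.57 in CDP, 6.598 in cMoP, 8.34 in the classical and 10.37 in the nonclassical monocyte. It was also lower in cMoP than in MDP (-1.10) and higher in the classical monocyte than in cMoP (1.74). Of the 21 glycan removal genes, 0 were higher and 3 lower from the classical to the nonclassical monocyte (background 1.87% and 5.17%). The 3 were Gla (-1.91), Glb1 (-1.06) and Hexa (-1.01), which degrade glycolipids in lysosomes. After quantile normalization 1 of the 21 was called. Galc, a lysosomal galactosidase of glycolipids, was higher in cMoP than in CDP (1.45, at least 2.18-fold), and Man2b1, a lysosomal mannosidase, was higher in the classical monocyte than in cMoP (1.01). Neu1, the lysosomal sialidase, ranged from 6.47 to 7.28 with no call.

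Proteins that carry or bind these glycans were listed too. Selplg, which encodes the selectin ligand PSGL-1, ranged from 11.00 in MDP to 12.01 in the classical monocyte with no call in the 5 comparisons. Among 14 measured selectins and carriers, 3 were higher and 1 lower in the classical monocyte than in cMoP (background 3.62% and 2.27%). The higher ones were Itgam (3.601), Itgb2 (2.88) and Ptprc (1.80), and the lower one was Cd34 (-3.58). Itgb2 was also higher in CDP (1.74) and in cMoP (1.10) than in MDP, while Sele (-1.49) and Cd34 (-1.31) were lower in CDP than in MDP. Between the monocyte arrays 0 were higher and 2 lower in the nonclassical monocyte (background 1.87% and 5.17%). The 2 were Cd24a (-3.62) and Cd34 (-1.35, at least 1.96-fold).

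The 17 galectins and siglecs, which bind galactose and sialic acid ends, were called in every comparison. Against MDP, 3 were higher and 0 lower in CDP (background 0.602% and 0.552%). They were Lgals3 (2.65), Siglech (1.98, at least 2.66-fold) and Cd22 (1.38, at least 1.94-fold). In cMoP 3 were higher and 1 lower than in MDP (0.737% and 0.717%), the higher being Lgals3 (1.65), Siglece (1.35) and Siglecg (1.24). Between cMoP and CDP 1 was higher and 3 were lower (1.69% and 1.15%). Among them were Siglech (-2.54, at least 2.66-fold), Cd22 (-1.57, at least 1.94-fold) and Siglece (1.44). From cMoP to the classical monocyte 3 were higher and 0 lower (3.62% and 2.27%). The 3 were Lgals3 (2.80), Cd33 (2.32) and Siglec1 (1.06, at least 1.43-fold). From the classical to the nonclassical monocyte 0 were higher and 6 lower (1.87% and 5.17%), including Cd33 (-2.58), Lgals1 (-2.10) and Siglece (-1.81). The list median lay between -0.01 and 0.15 in the 5 comparisons. Lgals3 and Cd33, both higher in the classical monocyte than in cMoP, were thus among the genes lower again on the nonclassical array (-1.26 for Lgals3).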

How the data were processed

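RNA of 5 sorted marrow populations was measured with 1 array each and biotin-labelled with the Nugen Encore kit, per the labels' protocols. The deposited table holds log2 values for 35556 probe sets; no label names the scale, so log2 was inferred from a span of 1.59 to 14.24, and folds depend on that. Background correction, normalization and software: not given in the sources used here. Genes were named from the platform annotation through the 21789 probe sets with 1 symbol, with the probe set of highest mean per gene; all 81 member probe sets kept their symbol through their Entrez IDs in RefSeq (GRCm38.p6). A gene was called at a difference of 1 log2 unit with the higher array at or above the floor, the median of named genes. The code of the call rule was run on simulated arrays in which chosen genes above the floor were shifted past the threshold. That run does not measure how reliable calls from 1 array are. Alternatives were no floor, a floor at the upper quartile, quantile normalization, median centring and the mean of probe sets. All called members are named with 5 values, other members by range, and pathway genes by the 3 largest called differences per list and comparison; Rpn1 between the monocytes, Ptprc, Lgals3 there, and genes named for their step without a call (Ugcg, C1galt1, Selplg, Neu1), were chosen after their values were seen. Upstream windows were cut from a RefSeq promoter table. Members and lists were chosen with earlier results of these data known. Python 3.11.15 with pandas 2.3.3 and numpy 2.4.6 was used.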

Additional observations from a re-analysis of the deposited data

How the results depend on the processing

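Each count of called members was recomputed under the 5 alternatives. Median centring, the mean of probe sets and leaving out the floor kept every count of members within 1.5 times its value, although with the mean of probe sets St3gal1 was no longer called in the classical monocyte against cMoP (0.65). A floor at the upper quartile (7.93) left 21 members at or above it. It left 1 higher and 0 lower between cMoP and CDP, 2 higher and 2 lower between the classical monocyte and cMoP, and 0 members lowest on 1 array by 1 log2 unit. The calls it ended were those of St3gal5 in both of the steps that involve cMoP, both calls of St6galnac4, those of St3gal6, Galnt3, Galnt9 and Mgat4a, and of B4galt4 from cMoP to the classical monocyte. Quantile normalization gave 1 member lower between the nonclassical and the classical monocyte (without Gcnt1 and B3gnt8), 0 higher in both monocytes than in all progenitors, and 2 lowest on 1 array, with Mgat4a added. No called member difference changed sign under quantile normalization, median centring or the mean of probe sets. The largest differences of a list's median between settings were for N-glycan trimming (-0.45 to -0.18 with quantile normalization) and precursor synthesis, both between the monocyte arrays. Applying the settings to the pathway lists was chosen after seeing the data. No paired analysis was possible because each population has 1 array. Dim signal limits the values under the floor, which have bounds only.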
